A study of Mus musculus with 10 samples.

Results

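The genes described here are 9 imprinted genes of the mouse whose promoters carry DNA methylation on the maternal allele: Airn, Peg10, Sgce, Nnat, Plagl1, Zrsr1, Mcts2, Nap1l5 and Peg13. They were chosen by name. All CpG cytosines measured inside each gene and up to 3 kb beyond both ends were taken (build mm10), which gave 604 of the 1988759 cytosines in the table and 393 of its 1407384 CpGs. The samples were 5 libraries labelled control and 5 labelled arsenic-treated, made from testis DNA of F2 mice, read by reduced representation bisulfite sequencing (RRBS), in which a restriction enzyme selects CpG-rich fragments and bisulfite turns unmethylated cytosines into thymines. The labels give no strain, age, dose or treated ancestor. Nor do they tie each library to its own animal, so the p-values here measure only the spread between libraries, which may be technical.

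At an imprinted gene only the allele of one parent is active. At these genes the egg lays down methylation at the promoter, the embryo keeps it through the genome-wide erasure that follows fertilisation, and every somatic cell then carries a methylated maternal and an unmethylated paternal copy. Male germ cells erase the mark before meiosis and do not restore it. Testis contains both germ cells and somatic cells (Sertoli, Leydig, peritubular, vascular and immune cells), so a level between 0 and that of a somatic tissue is known from this organ.

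The members belong to 3 kinds of gene. Zrsr1, a splicing factor related to U2AF, Mcts2, a translation factor copy, and Nap1l5, a nucleosome assembly protein relative, are retrogenes, intronless copies that landed inside another gene. Zrsr1 (chromosome 11, 22972005 to 22976496) lies inside Commd1, Mcts2 (chromosome 2, 152687148 to 152687946) inside H13, and Nap1l5 (chromosome 6, 58905233 to 58907126) inside Herc3. Nnat, which encodes the small membrane protein neuronatin (chromosome 2, 157560078 to 157562525), lies inside Blcap, and Peg13, a long noncoding RNA (chromosome 15, 72805602 to 72810324), inside Trappc9. Airn (chromosome 17, 12741311 to 12859884) is a long noncoding RNA that runs antisense through the start of Igf2r and silences it on the paternal allele. Plagl1 (chromosome 10, 13090832 to 13131694) encodes a zinc finger transcription factor. Peg10, a gene derived from a retrotransposon and needed for the placenta (chromosome 6, 4747306 to 4760517), and Sgce, which encodes epsilon-sarcoglycan (chromosome 6, 4674350 to 4747204), stand 102 bp apart and share 1 promoter region.

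RefSeq promoter windows (GRCm38.p6, the assembly behind mm10) were matched for 6 of the 9 members. The 250 bases before the start of Plagl1 and of Mcts2 are shown because most of their CpGs were measured in all 10 libraries, and those before Zrsr1 because they show the opposite case. Capitals mark the CpGs that were measured. The windows are chr10:13090582-13090831, chr2:152686898-152687147 and chr11:22971755-22972004, all on the plus strand.
Plagl1: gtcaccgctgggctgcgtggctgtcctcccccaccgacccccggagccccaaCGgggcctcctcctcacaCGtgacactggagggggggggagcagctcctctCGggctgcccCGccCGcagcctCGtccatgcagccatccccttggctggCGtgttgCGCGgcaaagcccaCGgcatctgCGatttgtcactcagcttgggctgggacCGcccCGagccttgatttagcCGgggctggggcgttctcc
Mcts2: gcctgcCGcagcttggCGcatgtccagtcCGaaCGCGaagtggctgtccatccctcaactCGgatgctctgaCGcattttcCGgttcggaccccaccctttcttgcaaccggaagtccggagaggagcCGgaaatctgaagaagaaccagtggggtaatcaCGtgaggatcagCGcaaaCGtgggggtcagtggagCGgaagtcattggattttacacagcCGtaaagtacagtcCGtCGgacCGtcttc
Zrsr1: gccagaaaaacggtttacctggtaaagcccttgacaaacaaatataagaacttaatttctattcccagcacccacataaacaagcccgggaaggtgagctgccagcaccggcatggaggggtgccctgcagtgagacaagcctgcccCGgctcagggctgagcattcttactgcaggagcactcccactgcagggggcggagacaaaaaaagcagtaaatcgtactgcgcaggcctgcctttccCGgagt

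In Plagl1, 14 of the 19 CpGs shown were measured, in Mcts2 17 of 20, and in Zrsr1 2 of 8, since most of the measured CpGs of Zrsr1 lie after its start. In the same windows of Airn, Nap1l5 and Nnat no CpG was measured, and the low CpGs of these genes described below lie after the start. In the 6 whole windows (300 bases, from 250 before to 50 after the start) all 39 measured CpGs fell on a CG of the RefSeq sequence. The hexamer TGCCGC, which the imprint-keeping protein ZFP57 binds when it is methylated, was searched on both strands; Plagl1, Mcts2, Nnat and Nap1l5 held it, or 4 of 6 windows, against 11.6% of all 32817 promoter windows. The search does not correct for CpG content: the median window held 7 CpGs, and the windows of these 4 members held 17 to 26.

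Across the genes and their flanks, methylation was high except in short stretches. Of 44 covered 1 kb tiles, 23 had a pooled level (methylated reads over all reads of the 10 libraries) above 80%, 17 were below 30% and 4 lay between. A run of covered tiles below 30% was taken as a low-level region, and each member had such a region, with Peg10 and Sgce sharing theirs. For 6 members the run at the start was taken. The promoter table has no start for Peg10, Sgce and Peg13, and there the run with most CpGs was taken; at Peg13 it reached from 72809792 to 72810919, across the end of the gene with the higher coordinate. The 8 regions held 226 CpGs, and their pooled levels were 8.69% for Peg10 and Sgce, 9.20% for Airn, 9.55% for Plagl1, 11.6% for Nap1l5, 12.1% for Peg13, 12.7% for Zrsr1, 13.4% for Mcts2 and 14.6% for Nnat.

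**Figure D1:**
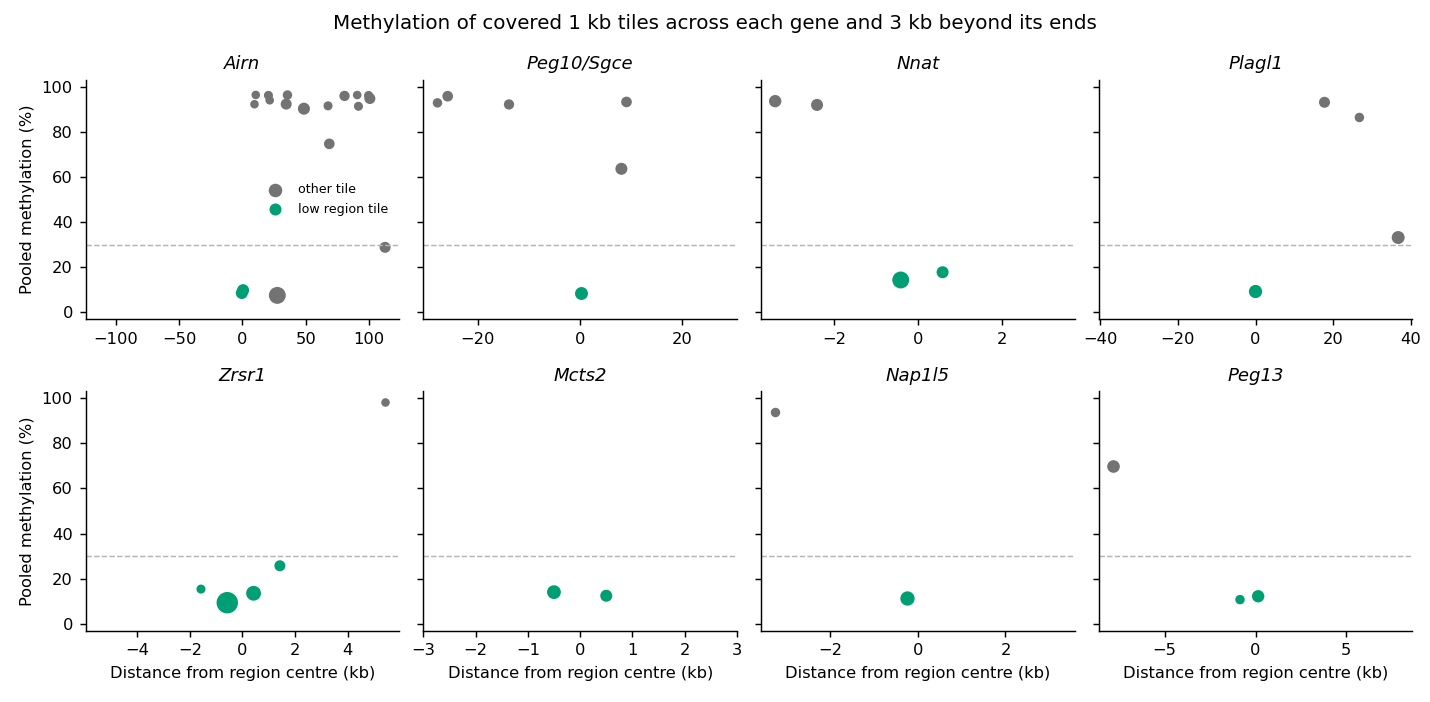
Pooled methylation (%, y axis) of each covered 1 kb tile against its distance from the centre of the low-level region (kb, x axis) for the 8 regions of the 9 genes; point area grows with the number of CpGs, green marks the region described for each gene and the dashed line is 30%. Green tiles lie between 8.57% and 25.8%, and most grey tiles lie above 80%.

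The measured low CpGs spanned 135 bp at Peg10 and Sgce, 180 bp at Plagl1, 244 bp at Nap1l5, 295 bp at Mcts2, 787 bp at Airn, 1128 bp at Peg13, 1607 bp at Nnat and 2351 bp at Zrsr1. Each span runs from the first to the last measured CpG of the low tiles. Because RRBS leaves gaps, a span can hold unmeasured stretches, and the low stretch can reach beyond it. At Nnat no CpG was measured between 157560477 and 157561448. The nearest measured CpG beyond the region was 1803 bp away on the lower side of Nnat, at 93.0%, and 2994 bp away on the lower side of Nap1l5, at 97.4%. At Zrsr1 the next CpG on the higher side was 4344 bp away, at 98.3%, and at Peg13 3411 bp away, at 90.5%. On the other side of Nap1l5 the gap was 51234 bp. At these 4 regions a methylated CpG thus bounded the low stretch on 1 side within 4344 bp. At Airn, Peg10 and Sgce, Plagl1 and Mcts2 no CpG was measured closer than 8306 bp to the region on either side. On the lower side of Plagl1 and the higher side of Nnat the next measured CpG was itself low, at 4.47% and 4.98%.

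Zrsr1 had a graded edge. Its 53 CpGs in the tile at 22972001 stood at 9.43%, the 20 in the next tile at 13.6% and the 7 in the tile after that at 25.8%, with the last measured CpG, at 22974252, at 44.5%. The level thus climbed from tile to tile along the gene body. In the other 7 regions 1 CpG, at Nnat, exceeded 25%, against 5 at Zrsr1.

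Within a region the pooled levels of the CpGs differed little. Of the 226 CpGs, 220 stood between 5% and 25%, 6 above and 0 below. The SD of the pooled level over CpGs was 1.77 points at Nap1l5, 1.78 at Mcts2, 1.91 at Peg13, 2.06 at Plagl1, 2.21 at Airn, 2.24 at Peg10 and Sgce, 3.41 at Nnat and 6.62 at Zrsr1. At Nap1l5 the middle of the 18 CpGs was 11.4%, with a lower quartile of 10.8% and an upper quartile of 11.6%. Pooling evens out the libraries. In single libraries the SD over the CpGs of Nap1l5 was 2.49 points (control library 1) to 11.2 (arsenic library 1). At Plagl1 it was 0 in control library 5 and arsenic library 5, where no read was methylated, and up to 7.41 in control library 3. Most ends of housekeeping genes were lower in the same libraries. The end with more measured CpGs was used, which need not be the promoter. For the 21 of 24 genes with covered tiles the median pooled level was 2.64%. Of these, 15 were under 5%, 5 stood at 5% to 30% and 1, Chmp2a, at 77.5%. Actb (13.1%) and Rplp0 (12.7%) stood at levels like the members', though their lowest tiles read 2.23% and 2.39%. Among 13768 autosomal tiles with at least 10 CpGs within 1 kb of an end of a protein-coding gene, 76.5% were under 5% and 3.27% fell within the members' range of 8.69% to 14.6%.

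**Figure D2:**
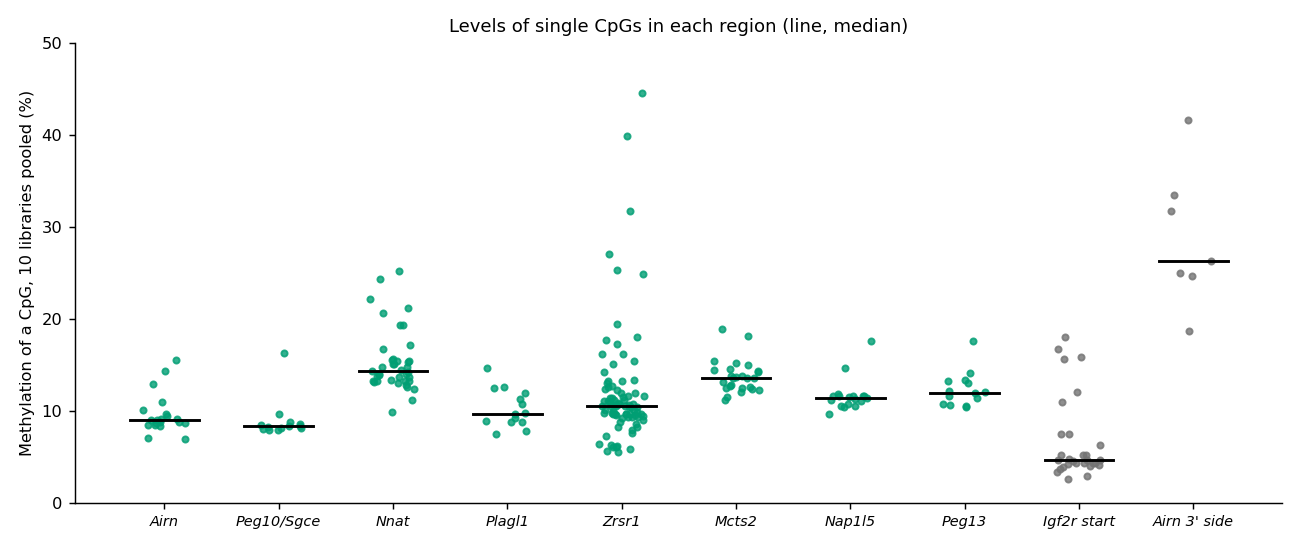
Pooled methylation (%, y axis) of every CpG in the 8 regions (green), and in 2 further low runs inside Airn (grey), with the median as a line. CpGs of a region cluster within a few points of each other except at Zrsr1, where 5 exceed 25%, and at the start of Igf2r, where 17 of 29 lie under 5%.

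Neighbouring CpGs on a strand were read from the same fragments and are not separate measurements. Stretches of at least 5 cytosines on 1 strand, no more than 150 bp from one to the next and with coverage within 10% (or 1 read) in every library, numbered 30 over all low runs and held 262 cytosines. The SD over cytosines of such a stretch, from levels pooled over the 10 libraries, had a median of 1.09 points. The SD over libraries of the same stretch had a median of 8.04 points and was larger in 30 of 30. Pooling and the shared reads of a stretch keep the SD over cytosines small, so this count is not a test. In 182 of 300 stretches in single libraries the highest and lowest methylated count over all cytosines lay at most 2 reads apart. In 42 of these 182 the count was 0 at every cytosine. Nnat shows this best: on the plus strand from 157560331 to 157560443 each of 11 cytosines had 0 methylated reads in 7 libraries, exactly 2 of 27 to 30 in control library 2, 4 to 6 of 19 to 20 in control library 5 and 3 to 4 of 30 to 32 in arsenic library 5.

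The 2 strands of the same CpGs gave different levels. In that part of Nnat the plus strand stood at 4.54% and the minus strand, read from other fragments, at 16.8%, with an SD over cytosines of 0.263 and 0.868 points. In Plagl1 the minus strand was higher at 7 of 7 CpGs measured on both, by a median of 6.28 points, and in Peg10 and Sgce at 11 of 11, by 3.99 points. In Airn it was lower at 15 of 15, with a median difference (minus strand less plus strand) of -4.61 points. In Zrsr1 it was higher at 29 of 61, with a median difference of -0.33 points, so neither strand led. Methylated counts in the 8 regions were also mostly even: of 3810 values (1 cytosine in 1 library) 570 were 2 and 564 were 4, while 100 were 1 and 158 were 3. Among values above 0, 79.4% were even here and 57.7% over the whole table. The cause was not tested. Whether both mates of a read pair were counted is not stated; if each molecule was counted 2 times, intervals and limits from read counts are too narrow.

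**Figure D3:**
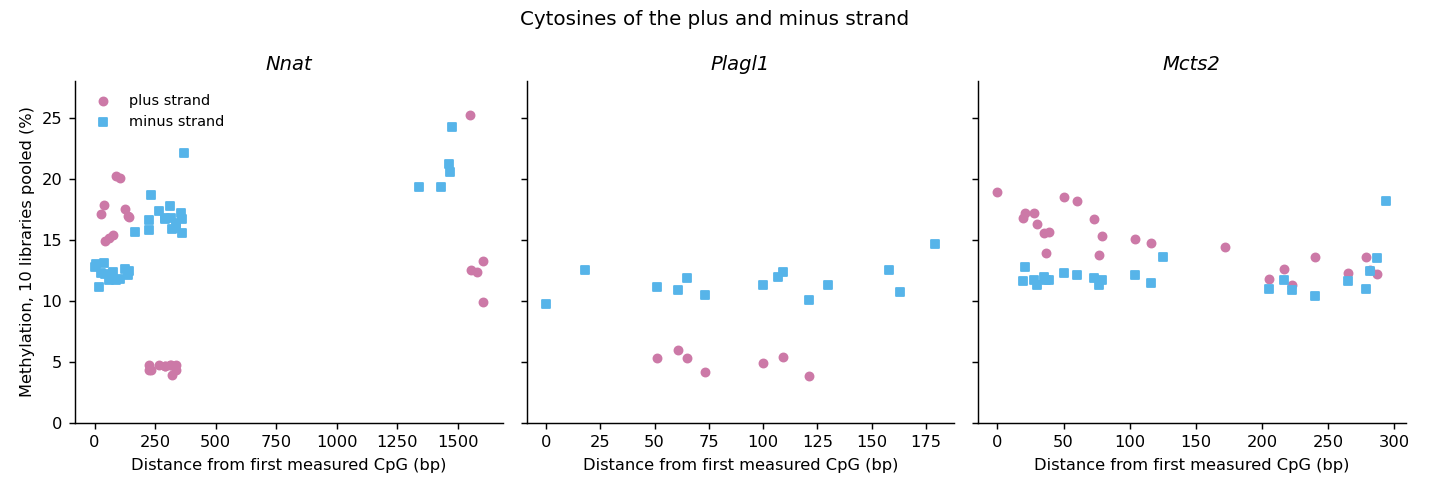
Pooled methylation (%, y axis) of single cytosines on the plus strand (pink circles) and minus strand (blue squares) against the distance from the first measured CpG (bp, x axis) in Nnat, Plagl1 and Mcts2. Cytosines of a strand lie at nearly 1 level along a fragment, and the strands differ, by 4.54% against 16.8% in the middle stretch of Nnat.

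Region levels varied widely from library to library. The 80 values (8 regions in 10 libraries) ran from 0% to 27.2%. Zrsr1, with 143 cytosines the most broadly measured, had the smallest SD over the 10 libraries, 1.96 points, from 10.7% to 16.1%. Airn followed with 2.61 points, Nnat with 3.69, Peg10 and Sgce with 4.23, Nap1l5 with 4.77, Peg13 with 5.63 and Mcts2 with 5.74. Plagl1 varied most, with 9.23 points. These SDs were 1.53 to 5.91 times the binomial sampling error with reads counted once per stretch of like coverage, of any length. They would be 1.08 to 4.18 times it if each molecule was counted 2 times. Where coverage changed along a fragment, its reads still entered more than 1 time. At Plagl1 the 21 cytosines made 12 such stretches. The sampling error is then too small, and these ratios are too high. Per library the regions held 360 to 686 read calls at Peg13, the lowest, and 4231 to 8473 at Zrsr1, the highest. The order of the SDs was not that of the read calls: Airn, with 901 to 1672 calls, varied less than Mcts2, with 1390 to 2916.

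The comparison of the groups asks whether these imprinted regions differ in testis of the arsenic group. No region passed the exact test at 0.05: the 5 control and 5 arsenic levels overlapped in each, and the means were higher in arsenic in 2 regions (Peg10 and Sgce, Mcts2) and lower in 6. The two-sided exact permutation test of each region, which has a smallest possible p of 0.00794, gave p from 0.0794 to 0.817 over the 10 low runs, unadjusted. The difference at Plagl1, -8.08 points, was -4.76 without control library 3 and -11.5 without control library 5.

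Among the retrogenes, Zrsr1 read 10.7%, 16.1%, 12.1%, 14.4% and 13.3% in control libraries 1 to 5 and 11.4%, 15.3%, 11.04%, 13.1% and 10.8% in arsenic libraries 1 to 5. The groups lay over each other, at 13.3% ± 2.09 (SD, n = 5) and 12.3% ± 1.91 (exact permutation p = 0.444). Mcts2 read 2.04%, 11.5%, 18.2%, 15.8% and 7.40% in control and 11.1%, 14.0%, 21.6%, 18.2% and 11.2% in arsenic. Control library 1 was the lowest of the 10 at Mcts2, and the means were 10.99% ± 6.48 and 15.2% ± 4.59 (SD, n = 5 each; exact permutation p = 0.294). With cytosines of at least 20 reads alone, the Mcts2 difference of 4.23 points was 0.019. Nap1l5 read 9.41%, 9.87%, 22.2%, 10.2% and 8.98% in control and 12.98%, 10.4%, 4.17%, 14.9% and 14.2% in arsenic. Control library 3 stood far above the other controls; the means were 12.1% ± 5.64 and 11.3% ± 4.36 (SD, n = 5 each; exact permutation p = 0.817).

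Of the noncoding RNA genes, Airn read 12.6%, 8.10%, 10.7%, 10.9% and 11.5% in control and 7.05%, 5.74%, 5.70%, 12.02% and 8.07% in arsenic. Arsenic library 4 stood among the control libraries, and the other 4 arsenic libraries lay below all 5 of them. The means were 10.8% ± 1.67 and 7.72% ± 2.60 (SD, n = 5 each; exact permutation p = 0.0794, the lowest of the 10 runs). The difference of -3.04 points exceeded the SD within each group but did not pass the test. Without arsenic library 4 it was -4.11 points (exact permutation p = 0.0159, unadjusted), and with each cytosine weighted equally it was -0.66 points (exact permutation p = 0.714). Peg13 read 8.46%, 10.3%, 19.3%, 19.6% and 5.73% in control and 3.72%, 16.04%, 17.6%, 9.98% and 11.3% in arsenic, so both groups covered nearly the whole range, at 12.7% ± 6.38 and 11.7% ± 5.48 (SD, n = 5 each; exact permutation p = 0.778).

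The promoter shared by Peg10 and Sgce read 3.61%, 4.09%, 6.24%, 13.3% and 6.16% in control and 13.9%, 13.2%, 11.8%, 3.91% and 8.67% in arsenic. Control library 4 and arsenic library 4 each stood among the other group's values, and the means were 6.69% ± 3.91 and 10.3% ± 4.10 (SD, n = 5 each; exact permutation p = 0.175). Nnat read 16.5%, 16.2%, 18.8%, 13.4% and 15.9% in control and 14.9%, 12.5%, 11.1%, 8.38% and 21.0% in arsenic. Arsenic library 5 was the highest of all at Nnat while the other 4 arsenic libraries lay below 15%; the means were 16.2% ± 1.91 and 13.6% ± 4.77 (SD, n = 5 each; exact permutation p = 0.278). The difference of -2.59 points was -4.45 without arsenic library 5 (exact permutation p = 0.0317, unadjusted) and -1.29 without arsenic library 4 (exact permutation p = 0.540). Plagl1 read 3.26%, 17.3%, 27.2%, 21.6% and 0% in control and 9.20%, 5.78%, 8.19%, 5.75% and 0% in arsenic. Control libraries 2, 3 and 4 were above every arsenic library and control libraries 1 and 5 below most of them, at 13.9% ± 11.8 and 5.78% ± 3.57 (SD, n = 5 each; exact permutation p = 0.190).

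The 0% values of Plagl1 rest on few reads. In control library 5 none of 553 read calls at 14 CpGs was methylated, but no cytosine had more than 35 reads, and 0 of 35 allows a level of up to 8.57% (3 counts of the total, for counting error only). In arsenic library 5, 0 of 44 reads allows up to 6.82%. If each molecule was counted 2 times, the limits are 17.1% and 13.6%.

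**Figure D4:**
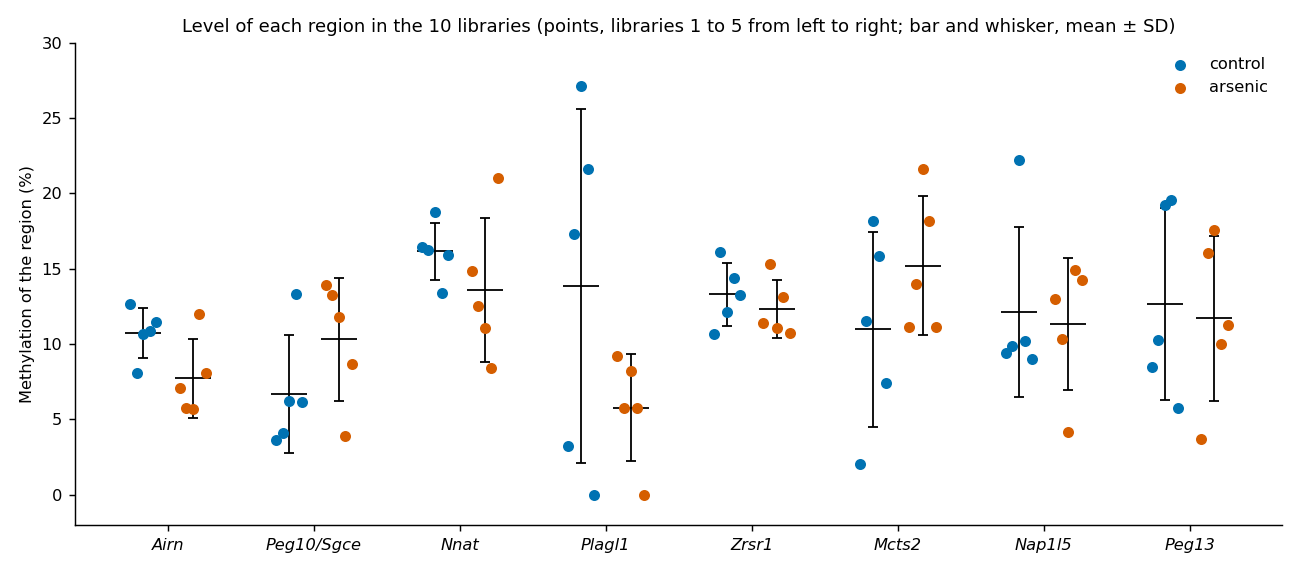
Methylation (%, y axis) of the 8 regions in the control (blue) and arsenic (orange) libraries, 1 point per library, with the mean and SD of each group of 5. The groups overlap in every region; Zrsr1 is tight, between 10.7% and 16.1%, and Plagl1 runs from 0% to 27.2%.

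In the fit over all 165978 tiles with at least 3 CpGs (quasi-binomial logistic model, F test of the group, Benjamini-Hochberg adjustment, called at an adjusted p under 0.05 and at least 10 points), 0 of the 34 member tiles tested were called, against 0% of all tiles. An unadjusted p under 0.05 was found at 5 of the 34, against 5.80% of all tiles, and groups did not overlap in 0 of the 34, against 0.832%. Limma on log2 ratios also called 0 member tiles, with 1 at an unadjusted p under 0.05. The median difference was -0.16 points over the member tiles and -0.10 over all tiles.

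The 5 member tiles with an unadjusted p under 0.05 went both ways. The tile at 152686001, before the start of Mcts2, stood at 8.51% ± 7.36 in control and 19.4% ± 4.01 in arsenic (SD, n = 5 each; quasi-binomial adjusted p = 0.808), while the next tile, which holds the start, stood at 13.8% ± 8.74 and 8.98% ± 6.61 (adjusted p = 0.925). The neighbouring tiles of 1 promoter region thus leaned in opposite directions. The tile at 72802001 beside Peg13, which lies mostly beyond the 3 kb flank, stood at 65.3% ± 4.97 and 73.7% ± 3.16 (adjusted p = 0.808). Peg13 and its flanks hold 17 CpGs, 14 of them in the low region, so most of the tile's 12 CpGs lie outside. The tile at 12742001 in Airn stood at 11.6% ± 7.43 and 6.51% ± 3.15 (adjusted p = 0.838). The other tile of that region, at 12741001, leaned the other way, at 7.95% ± 6.48 and 8.80% ± 2.75 (adjusted p = 0.989). The Plagl1 tile stood at the levels above (adjusted p = 0.861). The fifth was the start of Igf2r. In the remaining members the tile with the smallest p was that of the shared region at 4747001 for Peg10 (adjusted p = 0.914), that at 4719001 for Sgce (0.910), that at 157560001 for Nnat (0.878), that at 22972001 for Zrsr1 (0.864) and that at 58906001 for Nap1l5 (0.963), all from the quasi-binomial fit.

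Airn crosses 2 further low runs. The first, from 12769359 to 12769694, is the start of Igf2r, the gene of the receptor that clears insulin-like growth factor 2, where somatic cells gain methylation on the paternal allele only after fertilisation. Its 29 CpGs pooled to 7.53%, with a median of 4.68% and a maximum of 18.1%, and 17 were under 5%. By library it read 3.03%, 4.51%, 8.16%, 0.128% and 8.32% in control and 4.97%, 9.05%, 4.60%, 14.6% and 16.97% in arsenic. The groups overlapped, at 4.83% ± 3.49 and 10.04% ± 5.60 (SD, n = 5 each; exact permutation p = 0.111; quasi-binomial adjusted p of the tile 0.861). Taken by strand, the groups did not overlap in 1 of 19 sets over all low runs, the minus strand of this one, against 0.791% of all single-strand sets of at least 3 cytosines in a 1 kb tile. The second, 7 CpGs between 12854225 and 12854544 near the far end of Airn, pooled to 28.8%, at 26.1% ± 4.46 in control and 31.9% ± 9.05 in arsenic (exact permutation p = 0.222).

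A tile of Plagl1 near its far end, at 13127001, stood at 33.1% over 13 CpGs, and a tile of Peg10 inside the gene, at 4755001, at 63.6% over 10 CpGs. Both are intermediate levels away from the start. In Plagl1 the far tile read 35.7% ± 8.21 in control and 28.7% ± 11.3 in arsenic (adjusted p = 0.898), and in Peg10 64.8% ± 2.82 and 62.4% ± 4.69 (SD, n = 5 each; adjusted p = 0.947).

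The mean over the 8 regions gives 1 value per library. It was 8.32%, 11.7%, 16.8%, 14.9% and 8.61% in control libraries 1 to 5, and 10.5%, 11.6%, 11.4%, 10.8% and 10.6% in arsenic libraries 1 to 5. The arsenic libraries lay between 10.5% and 11.6%, inside the control range, at 10.99% ± 0.483 against 12.1% ± 3.77 (SD, n = 5 each). No test is given, since the members were chosen with results known. The difference of -1.07 points was 0.113 without control library 3. Without Plagl1 the means were 11.7% ± 0.670 in arsenic and 11.8% ± 2.71 in control.

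Doubling a region's level gives the share of cells with 1 fully methylated copy under 2 conditions. Every cell must hold 2 copies, and all other cells must carry none methylated. Read this way the level is a measure of the somatic cell share. Copies per cell were not measured, so the doubled level is not a direct share of cells. The level of CpG-dense unmethylated tiles, 1.998% to 3.41% over the libraries, was not subtracted. The doubled mean was 16.6% to 33.6% in the control libraries and 21.1% to 23.2% in the arsenic libraries. The regions of a single library did not give a single share. In control library 3 the doubled level was 12.5% at Peg10 and Sgce and 54.3% at Plagl1, and in arsenic library 5 it was 0% at Plagl1 and 42.0% at Nnat. No library was high or low throughout: the number of regions above their own median over the libraries was 2 of 8 in control library 1 and 6 of 8 in control libraries 3 and 4, and 3 to 5 in the other 7 libraries. Fewer somatic cells and partial methylation of the maternal copy cannot be told apart in these levels. Incomplete bisulfite conversion would raise a level, and its part was not tested.

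Other values of the same libraries did not follow the members' mean in order. CpG-dense tiles (at least 10 CpGs) with a pooled level under 5% read 2.88% in control library 4 and 3.41% in control library 5, and 1.998% to 2.33% in the other 8. The members' mean was high in control library 4 and low in control library 5. Germ cell genes such as Dazl, Ddx4 and Sycp3 are known to carry promoter methylation in somatic cells. The end with more measured CpGs was used for 14 such genes, and it need not be the promoter. Their pooled levels ran from 13.2% at Ddx4 to 96.0% at Tex19.1, with 11 at 5% to 30% and 3 at 30% or more. The median over the 14 was 28.4% in control library 2, the highest, and 17.6% in arsenic library 4, the lowest. The part of these values in the members' levels was not tested. Total reads over the cytosines were 69771871 to 100355708 per library and median coverage 27 to 40 reads.

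**Figure D5:**
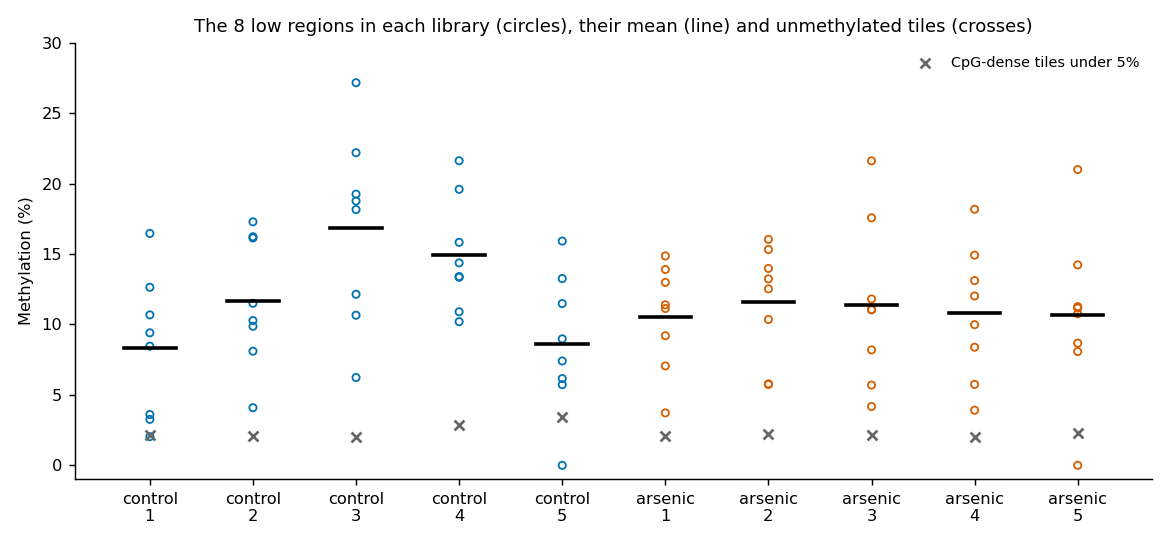
Methylation (%, y axis) of the 8 regions in each library (open circles, x axis), their mean (line) and the level of CpG-dense tiles whose pooled level is under 5% (crosses). The mean runs from 8.32% to 16.8% in control and from 10.5% to 11.6% in arsenic, and the regions of a library spread over 10.3 to 21.0 points.

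Other genes listed as imprinted gave levels on both sides of the members'. At the end with more measured CpGs, 20 of 23 genes listed for maternally methylated regions elsewhere had tested tiles. Of these, 8 stood at 5% to 30%, 7 under 5% and 5 at 30% or more. Whether each listed gene carries such a region was not checked. The list holds Dlk1 and Rtl1, of a domain whose mark is paternal, and counts 1 tile for both Peg3 and Usp29; without these 2 genes and with that tile once, 3 of 18 stood at 30% or more. Kcnq1ot1 stood at 14.6%, Gnas at 12.4%, Mkrn3 at 11.02% and Slc38a4 at 16.8%, within or near the members' range. Igf1r stood at 2.05% and Inpp5f at 1.45%; for genes such as Inpp5f and Grb10 the imprinted region lies inside the gene, away from the end used. Of their tiles 0 were called and 1 had an unadjusted p under 0.05. Of 3 genes near paternally methylated regions, H19 stood at 91.8%, Meg3 at 15.8% and Rasgrf1 at 2.90%.

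Low, even levels were also found outside the members. Among autosomal tiles with at least 20 CpGs and a pooled level in the members' range (309, of which 3 are members'), the median SD over CpGs was 6.41 points. Outside the members the smallest SDs, 1.096 to 1.89 points, were at Rpl21, H3f3b, Mbd3, Klhl21, Pdzd2, Atp5d, Henmt1, Impact, Agap2 and Gnas, in this order. Impact and Gnas are imprinted and carry maternal methylation. Their SDs over libraries were 4.15 and 4.17 points, beside 4.29 in the Nnat tile and 2.99 in the Zrsr1 tile at 22972001. Those of the other 8 were 5.66 to 13.8 points. The SD over libraries did not set the members apart: its median over the 309 tiles was 3.38 points, and the Mcts2 and Plagl1 regions, at 5.74 and 9.23 points, lay within the range of the 8.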

How the data were processed

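Per the file headers, the deposited table holds 3 read counts per CpG cytosine and library (all, methylated and unmethylated reads), not normalised by the authors. The submitters' processing notes name Trim Galore 0.6.5, Bismark 0.22.3, methylKit 1.22.0 and mm10, without their settings. Every cytosine had at least 10 reads in all 10 libraries, so the minimum of 10 removed none. Reads carry no molecular identifiers, so limits cover counting error only.

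Genes came from a RefSeq table on GRCm38.p6, without strand or exons. Members and lists were chosen with earlier results of these data known. Named were all members with their regions, the tile of smallest p in each, overlapping genes at a low run, and the 10 tiles most alike by the SD over CpGs; other examples were chosen after their values were seen. Tiles of 1 kb with at least 3 CpGs were fitted over the whole table by quasi-binomial logistic regression on the methylated and unmethylated counts, with a Pearson dispersion squeezed as in limma and not under 1, tested on simulated data. Region levels (methylated over all reads; up to 2 uncovered tiles did not end a run) were compared by exact permutation over 252 assignments. Alternatives were a coverage of 20, limma on log2((methylated + 1)/(unmethylated + 1)), a replicate block, 1 CpG per tile, borders moved by 500 bp, thresholds of 20% and 40%, equal weights and leaving out libraries. Python 3.11.15, numpy 2.4.6, scipy 1.17.1, pandas 2.3.3, R 4.3.3 and limma 3.58.1 were used.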

Additional observations from a re-analysis of the deposited data

Results flagged for a closer look

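Dixon's test at the 95% level was applied to the 5 libraries of each group in each low run and in the mean, 22 sets in all, and chance marks about 1 set in 20. It marked 3 single libraries. At Nap1l5, control library 3 stood at 22.2%, and the other control libraries between 8.98% and 10.2%. At the promoter shared by Peg10 and Sgce, control library 4 stood at 13.3%, and the others between 3.61% and 6.24%. In the low run near the far end of Airn, arsenic library 2 stood at 47.8%, and the others between 26.2% and 30.5%.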

How the results depend on the processing

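The count of member tiles called was 0 in each of the 16 other fits. Over all tiles it was 1 with tile borders moved by 500 bp and 1 with limma, and 0 in the other fits, leaving out each library included. The titles give both groups the replicate numbers 1 to 5. Deviations of libraries with the same number correlated by -0.013 to 0.017 across tiles. The highest correlation of each control library with an arsenic library of another number was 0.0040 to 0.017. Sampling noise of single tiles lowers such correlations, so they cannot decide whether the numbers pair libraries. With a replicate block 0 tiles were called. The Nap1l5 difference of -0.80 points was 4.03 at a coverage of at least 20 and -1.69 to 1.72 with 1 library left out, and that of Peg13, -0.95 points, was -2.68 to 1.05; the cause was not tested. Leaving out 1 library moved the mean over the regions between -2.01 and 0.113 points. No other region reversed. Without control libraries 4 and 5, chosen after seeing the data, the mean difference was -1.28 points. With each cytosine weighted equally the Airn difference was -0.66 points, and at a coverage of at least 20 that of Mcts2 was 0.019 points. Calls per library were 360 to 8473 over the regions, and neighbouring cytosines repeat the same reads, so the depth of separate molecules is lower.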

Other observations

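At the start of Igf2r, inside Airn, the 7 cytosines on the minus strand of the CpGs from 12769359 to 12769410 read 0%, 1.13%, 2.38%, 0% and 9.64% in control libraries 1 to 5 and 15.1%, 26.3%, 23.7%, 20.9% and 31.0% in arsenic libraries 1 to 5. The groups did not overlap there, which held in 1 of the 19 sets of cytosines of 1 strand over the low runs, against 0.791% of all single-strand sets of at least 3 cytosines in a 1 kb tile; the set was chosen after its values were seen, so no test is given. On the plus strand the same 7 CpGs read 3.48%, 20.5%, 29.1%, 0% and 12.6% in control and 8.57%, 12.8%, 2.20%, 24.9% and 20.8% in arsenic. There the groups overlapped fully, at 13.1% ± 12.002 and 13.8% ± 9.14 (SD, n = 5 each). Each cytosine had 10 to 66 reads per library, and the 7 of a strand were read from much the same fragments.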
